A study of Callithrix jacchus with 4 samples.

Results

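Immediate early genes were followed through the cell types of marmoset primary visual cortex (V1) after ischemic stroke. The 8 genes were chosen by name for their role: *FOS*, *FOSB*, *JUN* and *JUNB*, whose proteins pair into the transcription factor AP-1, *EGR1*, *NR4A1* and *NPAS4*, which encode other transcription factors, and *ARC*, which encodes a synaptic protein. The deposited tables list 6 of the 8, among 32323 genes for the injured cohort and 16383 for the control cohort, and *JUN* and *JUNB* are not analysed here. Over all nuclei, the injured libraries held 949 UMIs (unique molecular identifiers, the tags of single captured transcripts) of *FOS*, 17 of *FOSB*, 2115 of *EGR1*, 4861 of *NR4A1*, 929 of *ARC* and 104 of *NPAS4*. The control library held 23, 4, 294, 1164, 170 and 13 UMIs of the same genes in that order. *FOSB*, with its 17 and 4 UMIs, passed the low-count filter in no comparison.

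Single-nuclei RNA sequencing (snRNAseq) was performed on V1 of adult marmosets. In the injured cohort, 3 animals were injected with the vasoconstrictor endothelin-1 in the left hemisphere, and tissue was taken after 7 days with 1 library per animal, called injured 1, injured 2 and injured 3. In the control cohort, V1 of 3 adult marmosets without lesion was used. All control nuclei carry 1 library name in the deposited data and are taken here as 1 pooled library. The variation among control animals is therefore unknown. All animals received an overdose of pentobarbitone, and grey matter of the operculum, in stroke animals with the core and penumbra, was frozen about 20 to 30 min after apnea. The methods state no transgene, and in the injured cohort dead and surviving tissue share 1 library. Nuclei of both cohorts were isolated with different buffers, sequenced at different facilities on different instruments and filtered for doublets by different methods, and these differences cannot be told apart from injury.

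The injured libraries held 7500, 12527 and 9510 nuclei and the control library 8610, with 22832703 to 48722394 UMIs per library. The median nucleus had 4504.5, 3531 and 4229.5 UMIs in injured 1, 2 and 3 and 2117 in control. Between 15 and 27 cell barcodes were shared by any pair of libraries. The authors had assigned each nucleus to 1 of 7 types from clusters of the same expression values: excitatory (ExN) and inhibitory (InN) neurons, astrocytes (Astro), oligodendrocytes (Oligo), their precursors (OPC), microglia and endothelial cells (Endo). Of the injured Endo nuclei, 2005 of 4444 formed cluster 19, which went against its label, with an endothelial marker sum (*FLT1*, *IGFBP7* and *SLC2A1*) of 126 to 267 CPM (UMIs of a gene per 1000000 UMIs of the sum) against 4867 to 5153 CPM in the other Endo nuclei. Endo values below are therefore given without cluster 19 unless stated. The control Endo nuclei, 181 in number, had an endothelial marker sum of 848 CPM and an astrocyte marker sum of 1171 CPM.

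Immediate early genes are transcribed within minutes of a stimulus without the need for new proteins. In neurons, calcium entry and the kinases downstream act on factors such as CREB, SRF and MEF2 at their promoters, and in visual cortex their transcripts are widely used to read recent activity. Growth factors, cytokines and stress induce many of the same genes in glia and vascular cells. *NPAS4* is the member most closely tied to neuronal depolarization, and ARC protein acts in the removal of glutamate receptors from synapses.

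The members fell into different distributions over the cell types of the injured cortex. With cluster 19 left out, *NR4A1* and *ARC* were highest in ExN, *FOS* was higher in every glial type than in either neuronal type, and *EGR1* was spread over ExN, oligodendrocytes and endothelial nuclei and lowest in InN. Neuronal and glial levels were compared with edgeR's quasi-likelihood test on 21 sums, 7 types in 3 animals, with the animal as a block. These sums held Endo as labelled, and Endo was left out of the contrast itself. The p-values were adjusted by Benjamini-Hochberg over 14139 genes. A gene was called where its adjusted p was under 0.01, its natural-log fold change exceeded 0.25 in size and 10% or more of either class's nuclei held a UMI. Of the genes tested, 36.1% were called, 19.8% higher and 16.2% lower in neurons. Of the 4 members tested, *NR4A1* was called, and *ARC* (higher) and *FOS* (lower) passed the p and fold limits but not the limit on nuclei, without which 57.2% of genes were called, 28.2% higher and 29% lower in neurons. *NPAS4* and *FOSB* did not pass the low-count filter. Because the types were set from the same nuclei's expression, these differences between types are not independent of the clustering.

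**Figure D1:**
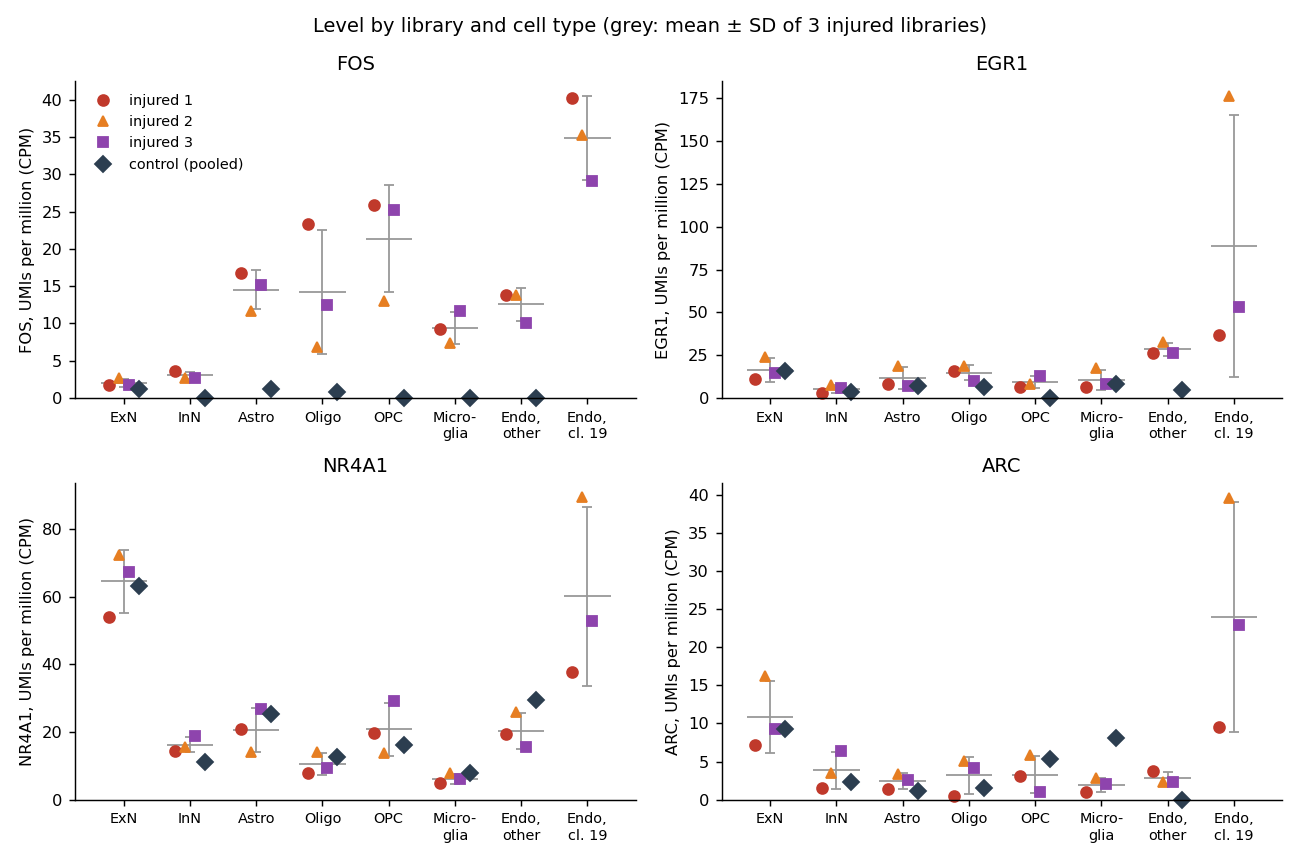
Level (CPM) of *FOS*, *EGR1*, *NR4A1* and *ARC* by cell type, 1 point per library, with grey bars for the mean and SD of the 3 injured libraries and cluster 19 apart from the other Endo nuclei. *NR4A1* in ExN lies between 54.1 and 72.3 CPM in every library, whereas the injured *FOS* points of glia, 6.85 to 25.9 CPM, stand above those of ExN, 1.73 to 2.69 CPM.

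Members were also compared between each of the 21 pairs of types in the same kind of fit, and many genes separate the types, so each pair has its own background. Of all genes, 19.1% passed an adjusted p of 0.01 between ExN and InN, 52.1% between ExN and astrocytes, 49.5% between ExN and oligodendrocytes, 46.8% between ExN and OPC, 69.5% between ExN and microglia and 68.6% between ExN and Endo. From InN, 46.9% separated astrocytes, 45.6% oligodendrocytes, 42.6% OPC, 65.6% microglia and 64.6% Endo. From astrocytes, 37.6% separated oligodendrocytes, 26.3% OPC, 57.3% microglia and 55.5% Endo. Between the remaining types the share was 33.3% for oligodendrocytes and OPC, 51% for oligodendrocytes and microglia, 53.8% for oligodendrocytes and Endo, 51.9% for OPC and microglia, 51% for OPC and Endo and 59.1% for microglia and Endo.

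*NR4A1* encodes an orphan nuclear receptor that activity and stress both induce. In ExN its level was 54.1, 72.3 and 67.2 CPM in injured 1, 2 and 3 and 63.3 CPM in control. In InN it was 14.4, 15.6 and 18.8 CPM against 11.02 in control, and in astrocytes 21.02, 14.01 and 26.9 CPM against 25.4. The control library thus lay inside the injured range in ExN and astrocytes and below it in InN. OPC had 19.7, 13.7 and 29.1 CPM, oligodendrocytes 7.90, 14.2 and 9.51 CPM, microglia 4.89, 7.80 and 6.01 CPM, and Endo 19.5, 26.1 and 15.5 CPM in the injured libraries. The lowest ExN value was above the highest value of any other type, with cluster 19 left out. On the mean over types, *NR4A1* was higher in neurons than in glia by 1.33 ± 0.16 on the log2 scale (SE, adjusted p = 1.37e-07, edgeR quasi-likelihood test). In tests between single types, ExN was above each of the other 6, and 10 of 21 pairs passed an adjusted p of 0.01. InN was above microglia (1.47, adjusted p = 3.5e-05, edgeR). It did not pass against astrocytes (-0.37, adjusted p = 0.229), OPC (-0.32, adjusted p = 0.364) or oligodendrocytes (0.56, adjusted p = 0.133).

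As deposited, *NR4A1* had a UMI in 28.8%, 30.0% and 32.4% of ExN nuclei in injured 1, 2 and 3 and in 16.5% of control ExN nuclei. The median ExN nucleus held 7077, 5378 and 6358 UMIs in the injured libraries and 2678 in control. With each nucleus thinned to 1000 UMIs, the shares were 5.83% ± 0.876 (SD, n = 3) and 6.08% (95% Clopper-Pearson interval 5.44 to 6.76), and the control lay inside the injured range of 4.96% to 6.71%. Microglia, at median depths of 2428 to 3930 UMIs in the injured libraries, gave a share of 1.99% ± 0.114 (SD, n = 3) as deposited.

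*ARC* transcripts are carried into dendrites after synaptic activity. Their level in ExN was 7.16, 16.2 and 9.31 CPM in injured 1, 2 and 3 and 9.25 CPM in control, with injured 2 highest and the control inside the injured range. InN had 1.60, 3.48 and 6.44 CPM against 2.27 CPM in control. In the 4 glial types the injured values ran from 0.439 to 5.87 CPM. *ARC* was higher in neurons than in glia by 1.33 ± 0.25 on the log2 scale (adjusted p = 5.34e-05, edgeR), with a UMI in 5.59% of neuronal and 0.766% of glial nuclei. ExN was above each of the other 6 types at an adjusted p below 0.01 and the other 15 pairs did not pass. This depends on the Endo nuclei left out. With Endo as labelled, ExN did not pass against Endo (adjusted p = 0.0164, edgeR). Endo as labelled was above astrocytes (adjusted p = 0.00691, edgeR) and microglia (adjusted p = 8.52e-05). With nuclei thinned to 1000 UMIs, the difference between neurons and glia was 0.99 and did not pass (adjusted p = 0.0451, edgeR). The share of microglia with an *ARC* UMI was 0.63% ± 0.178 (SD, n = 3) as deposited, and the 0.701% of oligodendrocytes lay within 1 SD of it.

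*NPAS4*, an activity-dependent factor, was scarce. Its level in ExN was 0.708, 1.74 and 0.635 CPM in injured 1, 2 and 3 and 0.761 CPM in control, again with injured 2 highest. InN had 0.801, 0.916 and 0.743 CPM, from 10 UMIs in all, and 0 UMIs in control. No UMI of *NPAS4* was found in astrocytes or oligodendrocytes of any library. Microglia had 3, 5 and 1 UMIs in injured 1, 2 and 3 (0.249, 0.696 and 0.125 CPM), and OPC of injured 2 had 2. *FOSB*, an AP-1 subunit whose spliced form accumulates with repeated stimulation, had 9 UMIs in all injured ExN nuclei and 3 in control ExN.

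*FOS* is the AP-1 subunit most used as a marker of stimulated cells. In ExN its level was 1.73, 2.69 and 1.75 CPM in injured 1, 2 and 3, and in InN 3.6, 2.75 and 2.72 CPM. Astrocytes had 16.8, 11.6 and 15.1 CPM, and OPC 25.9, 13.1 and 25.2 CPM. Every astrocyte and OPC library was thus above every neuronal one. Oligodendrocytes had 23.3, 6.85 and 12.5 CPM, microglia 9.29, 7.38 and 11.6 CPM, and Endo 13.9, 13.9 and 10.04 CPM. These also stood above all 6 neuronal values, with the widest spread between animals in oligodendrocytes (14.2 ± 8.34 CPM, SD, n = 3). *FOS* was lower in neurons than in glia by 2.44 ± 0.22 on the log2 scale (log2 fold change -2.44, adjusted p = 1.73e-09, edgeR), with a UMI in 1.3% of neuronal and 3.75% of glial nuclei.

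Between single types, 11 of 21 pairs passed for *FOS*, and ExN and InN were each below every glial type and Endo in *FOS* at an adjusted p below 0.01, while ExN and InN did not differ at that limit (adjusted p = 0.499, edgeR). Among glia, OPC exceeded microglia by 1.19 on the log2 scale (adjusted p = 0.00142, edgeR), and OPC did not pass against astrocytes or oligodendrocytes (adjusted p = 0.261 for each). The neuronal markers *SYT1*, *RBFOX3* and *GRIN2A* were summed in the same glial libraries as a reading of neuronal RNA. Their sum was 3.93% to 9.88% of its ExN level, *FOS* was 254% to 1494% of its own ExN level, and *EGR1* was 35.4% to 145.6%. *NR4A1* in glia was 8.94% to 43.3% and *ARC* 6.13% to 44.7% of the ExN level. The part of neuronal RNA in the glial values of *NR4A1* and *ARC* was not tested.

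*EGR1* encodes a zinc-finger transcription factor with baseline expression in visual cortex. Its level in ExN was 10.9, 23.9 and 14.4 CPM in injured 1, 2 and 3, against 2.80, 7.33 and 5.94 CPM in InN. Endo had 26.4, 33.0 and 26.4 CPM, and oligodendrocytes 15.8, 18.7 and 10.1 CPM. *EGR1* passed in 9 of 21 pairs of types. Within each animal Endo was highest of these 4 types and InN lowest. Astrocytes had 8.41, 18.8 and 7.31 CPM, OPC 6.16, 8.48 and 13.1 CPM, and microglia 6.22, 17.3 and 8.13 CPM. ExN exceeded InN by 1.60 on the log2 scale (adjusted p = 8.35e-05, edgeR) and microglia by 0.78 (adjusted p = 0.00216), and Endo was above ExN by 0.68 (log2 ExN over Endo -0.68, adjusted p = 0.00825). ExN and oligodendrocytes were not told apart (log2 difference 0.07, adjusted p = 0.844, edgeR). The contrast of neurons with glia was -0.25 ± 0.17 with types weighted equally (adjusted p = 0.197) and 0.55 with UMIs summed over all neuronal and all glial nuclei (adjusted p = 0.00489), so its direction depends on how the types are weighted.

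Injured 2 was the highest of the 3 animals for *EGR1* and for *ARC* in 6 of the 7 types and for *NPAS4* in all 5 types where it had a UMI. For *FOS*, injured 1 was highest in 5 of the 7 types. These ranks are over the Endo nuclei as labelled.

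Injured and control sums of each type were then compared, 3 libraries against 1, with the spread of the injured libraries assumed for the control library. Of the 42 pairs of member and cell type, 25 passed the low-count filter and 0 were called by edgeR's quasi-likelihood test. At an unadjusted p below 0.05 there were 7, and DESeq2, run with Endo as labelled, also gave 0 at an adjusted p of 0.01. Among all genes, 3.85% were called in ExN, 3.41% in InN, 1.5% in astrocytes, 0.774% in oligodendrocytes, 0.0697% in OPC, 0% in microglia and 6.21% in Endo. A call also needs the limit on nuclei. Among the tested pairs only *NR4A1* in ExN met it, with a UMI in 30.5% of injured nuclei. The other pairs could not be called at any p, so their 0 is not read against the shares of all genes. With 129 control microglia, 171 control OPC and 181 control Endo nuclei, the comparison had little depth in these types.

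**Figure D2:**
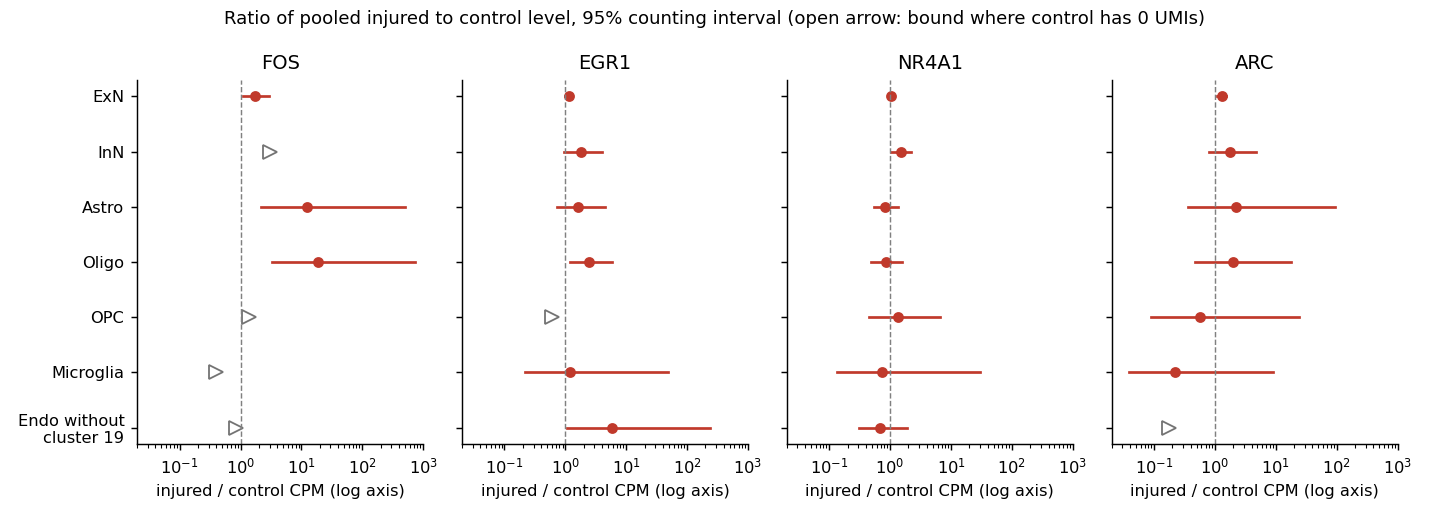
Ratio of injured to control level (pooled CPM, logarithmic axis) for *FOS*, *EGR1*, *NR4A1* and *ARC* in each cell type, with 95% counting intervals that do not cover the spread between animals and open arrows for lower bounds where control had 0 UMIs. *FOS* lies at 12.4 in astrocytes and 18.5 in oligodendrocytes with wide intervals, and *NR4A1* lies near 1 in ExN.

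In types other than ExN the control library held 1 UMI of *FOS* or none. Control astrocytes had 1 UMI of *FOS* (1.16 CPM) and control oligodendrocytes 1 UMI (0.783 CPM), both below all 3 injured libraries. The ratio of injured to control was 12.4 in astrocytes (95% counting interval 2.19 to 495, adjusted p = 0.0300, edgeR) and 18.5 in oligodendrocytes (3.23 to 738, adjusted p = 0.0807), where it was 11.9 without injured 1. Control InN, OPC, microglia and Endo had 0 UMIs. Against the 3 UMIs that a count of 0 allows, the pooled *FOS* level was 3.0-fold higher in injured InN (adjusted p = 0.0215, edgeR) and 1.36-fold higher in injured OPC (adjusted p = 0.194). These folds carry no counting error of the injured side, and neither type passed an adjusted p of 0.01. In OPC the value of injured 2, 13.1 CPM, was under that allowance of 16.05 CPM. In InN the microglia marker sum was 238, 190 and 148 CPM in injured 1, 2 and 3 against 62.9 CPM in control. Its part in the *FOS* value of InN was not tested. For microglia and Endo the control depth could not show a difference. In ExN the control had 21 UMIs (1.23 CPM), below each injured library, and the log2 fold change was 0.89 ± 0.44 (adjusted p = 0.181, edgeR). With ExN nuclei thinned to 1000 UMIs, the share with a *FOS* UMI was 0.108%, 0.353% and 0.167% in injured 1, 2 and 3 and 0.175% in control, which lay inside the injured range. Over alternatives the adjusted p of *FOS* ran from 0.00788 to 0.147 in astrocytes and from 0.00983 to 0.0943 in InN. Both lowest values came from leaving out injured 2, and the share of nuclei with a *FOS* UMI was then still under 10%.

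Over all 4 glial types together, *FOS* had 589 UMIs in the injured libraries, at 13.4, 8.82 and 14.4 CPM, and 2 in control, at 0.815 CPM. The ratio was 15.2 (95% counting interval 4.19 to 125.9). In neurons it was 2.20 (1.39 to 3.66), from 2.04, 2.70 and 1.92 CPM against 1.04. Microglia gave 66.6%, 51.9% and 51.3% of the glial UMIs in the injured libraries and 5.07% in control, and the part of this makeup in the glial ratio was not tested. *NR4A1* lay the other way over all glia, at 8.51, 10.8 and 14.6 CPM in the injured libraries and 17.1 CPM in control (ratio 0.652, 95% counting interval 0.476 to 0.915). Within astrocytes and oligodendrocytes (12.5 CPM in control) the control value of *NR4A1* lay inside the injured range. At 1000 UMIs per nucleus, 1.12% ± 0.255 (SD, n = 3) of injured glia had a *FOS* UMI against 0 of 946 control glia, which allows up to 0.389% (Clopper-Pearson). The neuronal marker sum was higher in control than in injured astrocytes (941 against 395 to 505 CPM) and oligodendrocytes (769 against 323 to 583 CPM), also in microglia (651 against 219.5 to 350.1 CPM), and lower in control than in injured OPC (273 against 395 to 536 CPM). The microglia marker sum was lower in control than in injured astrocytes (90.2 against 202 to 302 CPM), oligodendrocytes (75.2 against 272 to 373 CPM) and OPC (128 against 217 to 358 CPM). The sum for blood macrophages and T cells was 17.3 CPM in control astrocytes against 53.3 to 81.3 CPM. The part of these sums in the glial values was not tested.

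*NR4A1*, *ARC* and *EGR1* in ExN showed no difference past the threshold. *NR4A1* differed by 0.15 ± 0.19 (log2, adjusted p = 0.593, edgeR) and *ARC* by 0.38 ± 0.46 (adjusted p = 0.566). *EGR1*, at 15.7 CPM in control, differed by 0.20 ± 0.43 (adjusted p = 0.750), and *NPAS4* by 0.63 ± 0.72 (adjusted p = 0.543). Leaving out injured 2 turned the fitted direction of *ARC* (-0.05), *EGR1* (-0.20) and *NPAS4* (-0.08). In InN the *NR4A1* difference was 0.67 ± 0.32 (adjusted p = 0.163, edgeR), with all 3 injured libraries above the control. It was 1.38 (adjusted p = 0.0419) with nuclei of at most 2500 genes and 1.07 (adjusted p = 0.253) with nuclei thinned to 1000 UMIs.

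Injured non-neuronal types did not pass the test against control for *EGR1*. Control oligodendrocytes had 8 UMIs (6.26 CPM), below all 3 injured libraries, with a log2 fold change of 1.36 ± 0.54 (adjusted p = 0.138, edgeR). Control astrocytes, at 6.94 CPM, were also below all 3, with a log2 fold change of 0.84 ± 0.83 (adjusted p = 0.524, edgeR). Thinned to 1000 UMIs, 0.829% of control astrocytes had an *EGR1* UMI, inside the injured range of 0.386% to 1.79%. The control microglial value of 8.03 CPM, from 1 UMI, lay inside the injured range. Control OPC had 0 UMIs, and the injured OPC values, at most 13.1 CPM, were under the 16.05 CPM that a count of 0 allows. In Endo the control had 1 UMI of *EGR1* (4.90 CPM), and the ratio of 5.89 had a counting interval of 1.05 to 234 (adjusted p = 0.059, edgeR). The endothelial marker sum was also higher, at 4867 to 5153 CPM in injured and 848 CPM in control Endo, while the astrocyte marker sum was lower, at 251 to 475 CPM against 1171 CPM, and their part in the ratio was not tested.

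Whether injury effects differed between neurons and glia was tested as an interaction. Over 28 sums of 4 libraries, with Endo as labelled, 0 members passed an adjusted p of 0.01, where 1.6% of genes did. *FOS* could not be estimated because control InN, OPC and microglia had 0 UMIs. With types weighted equally in this way, the injury effect in neurons minus that in glia was 0.36 ± 0.67 for *NR4A1*. It was -2.35 ± 1.62 for *EGR1* and 0.64 ± 0.94 for *ARC* (log2). With UMIs summed over neurons and over glia, a fit added after the data were seen, 0 members passed, 1 (*FOS*) had an unadjusted p below 0.05 and 4.81% of genes passed. In these sums microglia gave 51.3% to 66.6% of injured and 5.07% of control glial UMIs, and the part of this makeup was not tested. There the injury effect in neurons minus that in glia was -2.72 ± 1.09 for *FOS* (log2, adjusted p = 0.136, edgeR), 0.68 ± 0.31 for *NR4A1* (adjusted p = 0.181), -0.74 ± 0.35 for *EGR1* (adjusted p = 0.198) and 0.10 ± 0.60 for *ARC* (adjusted p = 0.975). Without injured 2 the *FOS* value was -3.05 (adjusted p = 0.0368).

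The share of nuclei with a UMI of any member summarises these patterns at equal depth. With each nucleus thinned to 1000 UMIs, it was 6.55% (95% interval 5.56 to 7.65), 9.13% (8.39 to 9.91) and 7.30% (6.48 to 8.18) of neurons in injured 1, 2 and 3 and 7.82% (7.16 to 8.53) in control. The control lay inside the injured range. For glia the shares were 3.14% (2.62 to 3.72), 3.68% (3.16 to 4.26) and 4.08% (3.48 to 4.75), against 1.80% (1.05 to 2.86) from 17 of 946 nuclei in control, below all 3. Microglia were 2677 of 4047, 2410 of 4727 and 2046 of 3850 of these injured glia and 37 of 946 in control, and the part of this makeup was not tested. For *NR4A1* alone the thinned glial share was 1.15% ± 0.327 (SD, n = 3) in injured and 1.37% in control. As deposited, 32.7%, 36.5% and 37.0% of injured neurons and 19.7% of control neurons had such a UMI, and for glia 11%, 9.33% and 13% against 2.98%. Thinning left out 814 of 13438 injured and 1070 of 2016 control glia, and 136 of 11655 injured and 340 of 6413 control neurons, as shallower. No exact test of 3 libraries against 1 can reach 0.05, so none was made.

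**Figure D3:**
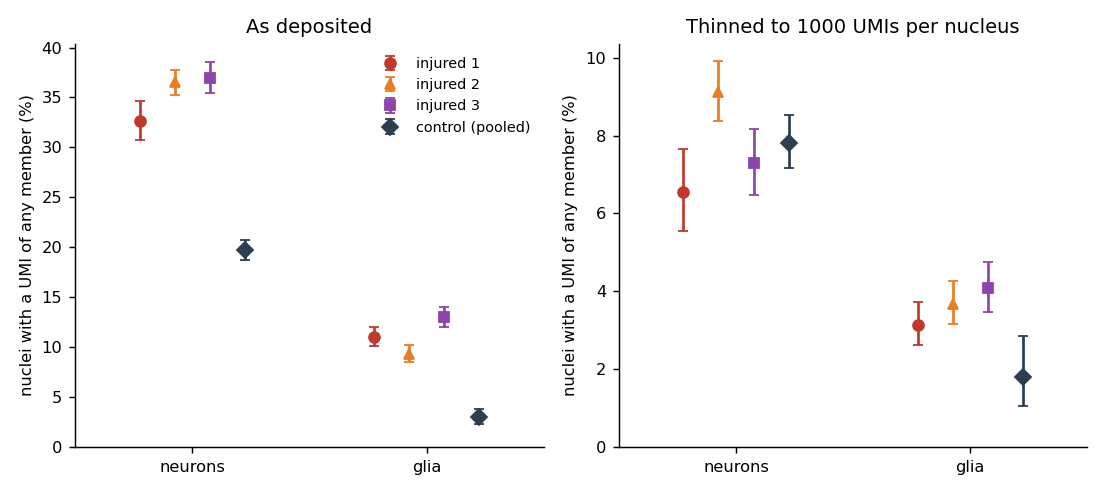
Share of neuronal and glial nuclei (percent) with a UMI of any of the 6 listed members, per library, as deposited and thinned to 1000 UMIs, with 95% Clopper-Pearson intervals. Thinned neurons of control, 7.82%, lie within the injured range, and thinned control glia, 1.80%, lie below the 3 injured libraries.

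Excitatory neurons were divided by 2 layer-associated genes, *CUX2*, frequent in upper layers, and *FOXP2*, frequent in deep layers. The injured libraries had 906, 2570 and 1517 ExN nuclei with a *CUX2* UMI and no *FOXP2* UMI, and 284, 564 and 422 with the reverse. *ARC* was 5.55, 14.1 and 7.99 CPM in *CUX2* nuclei and 8.25, 25.1 and 12.8 CPM in *FOXP2* nuclei of injured 1, 2 and 3. It was higher in *FOXP2* nuclei in 3 of 3 animals, and in control (12.9 against 6.49 CPM). The log2 difference, *CUX2* over *FOXP2*, was -0.76 ± 0.15 with the animal as a block (adjusted p = 0.0034, edgeR). The share of *FOXP2* nuclei with an *ARC* UMI was 9.84%, under the 10% limit, so 0 members were called where 9.52% of genes were. Without that limit 11.7% of genes were called, 5.4% lower in *CUX2* nuclei, and *ARC* among them. Without injured 2 the adjusted p was 0.0777 and without injured 3 it was 0.0158.

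*EGR1* was 11.9, 27.4 and 13.7 CPM in *CUX2* nuclei and 7.77, 17.3 and 13.9 CPM in *FOXP2* nuclei, higher in *CUX2* nuclei of injured 1 and 2 and close to equal in injured 3 (log2 difference 0.43 ± 0.17, adjusted p = 0.0967, edgeR). *NR4A1* was 54.7, 74.5 and 66.4 CPM against 49.998, 73.0 and 65.7 CPM (0.04 ± 0.08, adjusted p = 0.796, edgeR), and *FOS* differed by -0.17 (adjusted p = 0.811). The median depth of *CUX2* nuclei was 5313 to 6958.5 UMIs and of *FOXP2* nuclei 6077 to 7734.5 UMIs in the injured libraries, and the part of depth in the *ARC* difference was not tested.

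**Figure D4:**
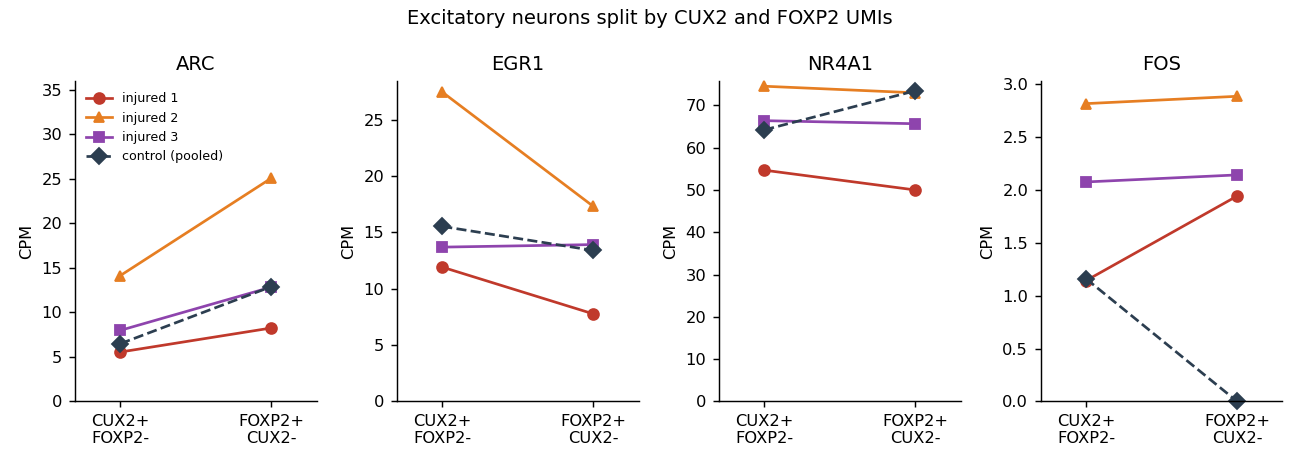
Level (CPM) of *ARC*, *EGR1*, *NR4A1* and *FOS* in *CUX2* and in *FOXP2* excitatory nuclei, with lines that join the 2 classes of each library. *ARC* lies higher in *FOXP2* nuclei in all 3 injured libraries and in control, while *NR4A1* differs little within any injured library.

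Other response genes give context from lists of which members were counted whether they moved or not. Of 22 tested genes among the other rapid primary response genes, 2 rose in injured ExN and 0 fell, where 3.85% of all genes were called, with a list median log2 fold change of 0.99 against 0.00 for all genes tested. As log2 ratios of pooled levels, with control counts of 0 set to 3 UMIs, the ExN medians were 0.93 for the rapid list and 0.71 for the heat shock genes below. The other AP-1 and ATF, delayed and upstream lists had 0.24, 0.39 and 0.08, and all genes -0.11. The rapid list had 1.80 in astrocytes, 1.06 in InN and 1.15 in oligodendrocytes, against -0.08, -0.10 and -0.08 for all genes. It had 0.004 in OPC, -1.11 in microglia and 1.29 in Endo, against -0.14, -0.52 and -0.22. Of the list genes, 6 of 11 in OPC, 12 of 21 in microglia and 10 of 18 in Endo had 0 control UMIs. Among all genes these were 1141 of 11476, 3021 of 13470 and 1285 of 12512. The medians in OPC, microglia and Endo thus rest on the allowance for a count of 0, and no fall is read from them. *IER5*, an immediate early response gene, was 18.9, 19.3 and 17.9 CPM in injured 1, 2 and 3 and 4.74 CPM in control (2.10 ± 0.20, adjusted p = 0.00186, edgeR). *IER3*, which acts in cell survival, was 24.0, 17.3 and 19.9 CPM against 5.21 (2.08 ± 0.25, adjusted p = 0.00334). Both were above control in every injured library, and without injured 1 neither passed (adjusted p = 0.0157 and 0.0183). The microglia marker sum in ExN was 249, 174 and 145 CPM against 61.5 CPM in control, and its part in these rises was not tested. *IER5* and *IER3* had a UMI in 10.5% and 10.7% of injured ExN nuclei, against 1.48% and 1.63% in control. The deeper injured nuclei met the 10% limit more easily, so counts of rises and falls here and below are not on equal terms.

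Of 14 rapid primary response genes tested in astrocytes, 2 rose and 0 fell, where 1.5% of all genes were called. Both met the 10% limit on nuclei through the injured side, at 10.5% of injured astrocytes against 0.168% (*CYR61*) and 0.337% (*DUSP1*) in control. The median astrocyte held 2903 to 5279.5 UMIs in the injured libraries and 1183 in control, so rises could meet that limit more easily than falls. *CYR61*, which encodes a matricellular protein, was 33.6, 37.2 and 45.7 CPM against 1.16 CPM, from 1 control UMI (ratio 34.6, counting interval 6.17 to 1371, adjusted p = 0.00556, edgeR). *DUSP1*, a phosphatase that turns off MAP kinases, was 31.8, 36.9 and 32.4 CPM against 2.31 CPM from 2 control UMIs (ratio 14.6, 4.0 to 121, adjusted p = 0.00605), and did not pass without injured 1 (adjusted p = 0.0115). In the same astrocyte sums the endothelial markers were at 285, 418 and 339 CPM against 113 CPM in control, and the microglia markers at 302, 258 and 202 CPM against 90.2 CPM, and their part in these rises was not tested. In Endo 3 of 18 rose and 0 fell, where 6.21% of all genes were called. Among them was *KLF2*, a flow-responsive endothelial factor, at 362, 406 and 310 CPM against 34.3 (3.61 ± 0.40, adjusted p = 0.000926). *IER2* was 109, 137 and 82.3 CPM against 0 UMIs (adjusted p = 0.00557, edgeR). Its pooled level was 7.35-fold above the 3 UMIs that a count of 0 allows, without counting error of the injured side. With Endo as labelled *IER2* did not pass without injured 1 (adjusted p = 0.0165). The endothelial marker sum was also higher in injured than in control Endo, as given above, and its part in these rises was not tested.

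**Figure D5:**
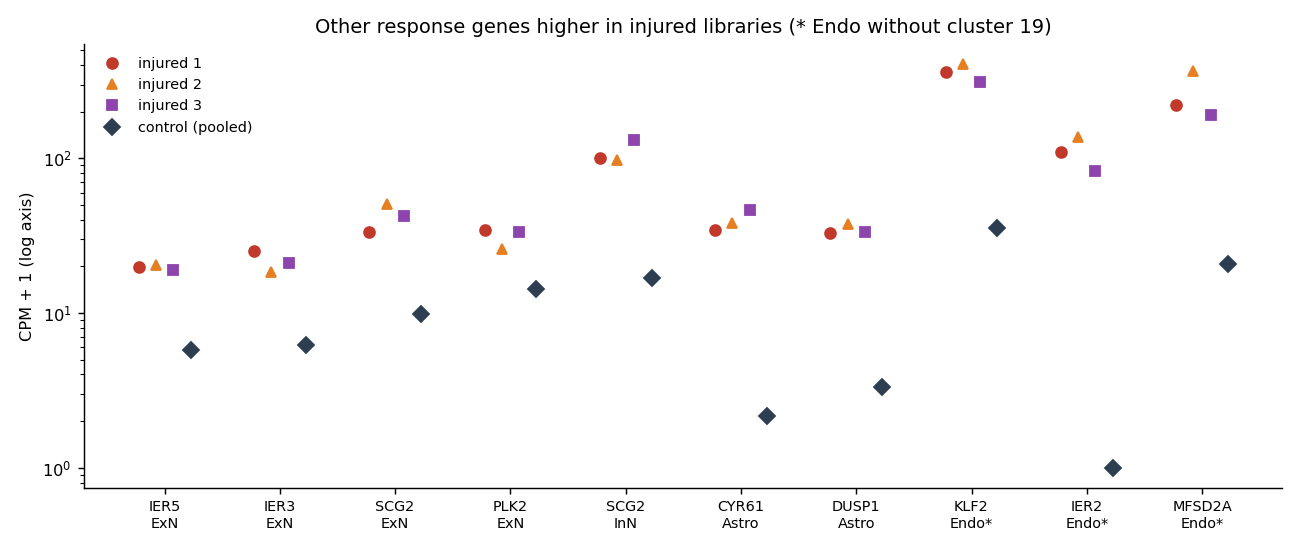
Level (CPM + 1, logarithmic axis) of response genes other than the members that were called higher in injured libraries, 1 point per library, with Endo shown without cluster 19. The injured points lie above the control point for the genes that rose, such as *SCG2* in InN at 96.0 to 131 CPM against 15.9 CPM.

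Among delayed or secondary response genes, 2 of 18 tested rose in ExN, 1 of 16 in InN and 3 of 17 in Endo, and 0 fell in these types. Over all genes the called shares were 3.85%, 3.41% and 6.21% in the same order, and nothing particular to the list is read from its counts. *SCG2*, a secretory granule protein, was 32.2, 49.7 and 41.5 CPM in injured ExN and 8.89 CPM in control (2.33 ± 0.30, adjusted p = 0.00429, edgeR). In InN it was 99.3, 96.0 and 131 CPM against 15.9 (2.88 ± 0.27, adjusted p = 0.000214), and it passed there without any one animal. The microglia marker sum was also higher in injured ExN and InN, as given above, and its part in the *SCG2* values was not tested. In Endo, *MFSD2A*, a lipid transporter gene of the blood-brain barrier, was 221, 368 and 190.4 CPM against 19.6 CPM (3.95 ± 0.72, adjusted p = 0.00731, edgeR). *PLK2*, a kinase of synaptic homeostasis, rose in ExN from 13.2 CPM to 33.4, 25.1 and 32.4 CPM (1.3 ± 0.21, adjusted p = 0.00816). Without injured 1 the ExN adjusted p was 0.0111 for *SCG2* and 0.0402 for *PLK2*. Of the other AP-1 and ATF genes, *FOSL2* alone was called, 1 of 7 tested, in Endo, at 118, 111 and 118 CPM against 39.2 CPM (1.78 ± 0.34, adjusted p = 0.00854). The endothelial and astrocyte marker sums moved between the same Endo groups, and their part in the values of *MFSD2A* and *FOSL2* was not tested.

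Upstream kinases and transcription factors had 0 of 21 called in ExN, and in Endo 1 rose and 1 fell of 20. *MEF2C*, a factor upstream of several members, rose by 2.32 on the log2 scale there, and *MAPK10*, a JNK-family kinase, fell by 1.86, in the same Endo groups whose endothelial and astrocyte marker sums moved, and the part of those was not tested. Of 6 tested heat shock genes, a list kept as a reading of stress and tissue handling, 2 were called higher in ExN, 2 in InN, 1 in each of astrocytes, oligodendrocytes and Endo and 0 in OPC and microglia, beside the shares of all genes given above for each type. *HSPH1*, the second gene in neurons, did not pass in ExN without injured 1 (adjusted p = 0.0157, edgeR) or in InN without injured 3 (adjusted p = 0.0183). *HSPA5*, a chaperone of the endoplasmic reticulum, was 66.0, 68.3 and 62.5 CPM in injured ExN and 10.9 CPM in control (2.71 ± 0.16, adjusted p = 0.000755, edgeR), and the part of these genes in the member values was not tested. No gene of the lists was called in OPC or microglia.

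Between neurons and glia of the injured animals, 0 of 20 rapid primary response genes were called in either direction, where 36.1% of all genes were, 19.8% higher and 16.2% lower in neurons. The call includes the 10% limit on nuclei, so the 0 does not show equal levels of these scarce genes. *IER2* was 8.15, 11.6 and 5.97 CPM in neurons and 35.1, 28.4 and 26.7 CPM in glia of injured 1, 2 and 3. *IER3* had no common direction, at 23.4, 17.4 and 19.2 CPM in neurons and 18.1, 31.2 and 13.5 CPM in glia. Of 18 delayed response genes, 5 were higher in neurons, led by the prohormone convertase *PCSK1* (log2 difference 2.45) and *SCG2* (2.35), and 3 were lower, led by the adaptor *NEDD9* (-1.69) and *TIPARP* (-1.36). Of 7 AP-1 and ATF genes, *JDP2* was higher (0.46) and *BATF* lower (-1.47). *JDP2* did not pass without injured 3 (adjusted p = 0.0289), and in injured 1 it was higher in glia (47.2 CPM) than in neurons (40.8 CPM). Of 21 upstream genes 10 were higher, including *CAMK2A* and the calcium channel gene *CACNA1C* (3.69 each), and 3 were lower. Between *CUX2* and *FOXP2* nuclei, *FOSL2* was higher in *CUX2* nuclei by 1.29 ± 0.12 (log2, adjusted p = 4.99e-06, edgeR), and *BDNF*, a neurotrophin, by 0.83 ± 0.15 (adjusted p = 0.00138). *BDNF* did not pass without injured 2 (adjusted p = 0.0201). Of 13 rapid primary response genes 0 were called under the same limits, where 9.52% of all genes were, which again does not show equal levels.

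The gene whose level ran most closely with each member was found over the 21 injured sums of animal and cell type, among 11837 genes, as Pearson's r of log2(CPM + 1). For *FOS* it was *TRIP6* (r = 0.95), for *NR4A1* *MAATS1* (r = 0.916), for *ARC* *DIRAS2* (r = 0.862), for *NPAS4* *RET* (r = 0.855) and for *EGR1* *TMEM109* (r = 0.834). These values are descriptions, since the 21 sums share libraries and depth. The sums hold Endo as labelled, so the Endo nuclei left out elsewhere are part of the value of every member. The *NPAS4* value rests on 104 UMIs, of which cluster 19 gave 3, 11 and 3 in injured 1, 2 and 3.

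Cluster 19 of the injured Endo nuclei (544, 800 and 661 nuclei in injured 1, 2 and 3) was examined after its values were seen and is described without a test or a name. Its median nucleus had 1150 UMIs, against 2759 in the other Endo nuclei. The neuronal gene *SYT1* was at 2763 CPM there, against 280.7 CPM in the other Endo nuclei and 3625.5 CPM in ExN. *FLT1*, an endothelial receptor gene, was at 21.6 CPM against 1613.1 CPM in the other Endo nuclei. The microglia marker sum was 987, 688 and 741 CPM in injured 1, 2 and 3, against 249, 174 and 145 CPM in ExN. The astrocyte marker sum was 629, 629 and 850 CPM, against 202, 266 and 261 CPM in ExN. The part of this mixed RNA in the member values of the cluster was not tested. *EGR1* in this cluster was 36.7, 176.4 and 53.0 CPM, *ARC* 9.47, 39.6 and 22.9 CPM, and *FOS* 40.3, 35.3 and 29.1 CPM in injured 1, 2 and 3. *NPAS4* was 3.55, 9.46 and 3.12 CPM there, from 3, 11 and 3 UMIs. For *EGR1* and *ARC* the animals differed widely, with injured 2 highest. Over the 3 libraries pooled, *NR4A1* was 63.0 CPM there, inside the range of the 5 ExN clusters of 200 or more nuclei, 52.7 to 90.2 CPM. Among 4837 genes above a minimum level in the cluster, *EGR1* was at rank 4 by its ratio to all other injured nuclei. *HBB*, a haemoglobin gene, was at rank 1. The *EGR1* rank rests mainly on injured 2, with 205 UMIs there against 31 and 51 in injured 1 and 3. The control cohort was clustered separately.

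Within ExN, co-detection of *ARC* and *NR4A1* was counted per nucleus. As deposited, 6.34%, 10.8% and 6.24% of nuclei with an *NR4A1* UMI had an *ARC* UMI in injured 1, 2 and 3 and 4.93% in control. Of nuclei without one, 4.0%, 6.42% and 5.11% had an *ARC* UMI in the injured libraries and 2.35% in control, lower in each of the 4. Thinned to 2000 UMIs per nucleus, the shares with and without *NR4A1* were 3.68% and 0.898% in injured 1, 4.29% and 2.79% in injured 2, 1.05% and 1.90% in injured 3 and 2.68% and 1.63% in control, so the order turned in injured 3. At 2000 UMIs, 0.818%, 1.68% and 0.687% of ExN nuclei in injured 1, 2 and 3 had UMIs of 2 or more members, against 0.806% in control, inside the injured range.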

How the data were processed

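Nuclei of V1 from 3 injured animals (1 library each) and 3 control animals (1 library name, taken as a pool) were analysed as deposited. The authors made the UMI counts with Cell Ranger 3.1.0 on the calJac3 genome with Ensembl release 91, removed doublets with Scrublet in the injured cohort, filtered the control cohort with Seurat, and deposited raw counts per gene and nucleus without normalization, with a cell type per nucleus. For every library, the counts of each annotated type were added up, and CPM are UMIs per 1000000 of such a sum. The sums were fitted over all genes with edgeR 4.0.16 in R 4.3.3 (TMM, filterByExpr, glmQLFit, glmQLFTest) and Benjamini-Hochberg adjustment, with animal as a block for contrasts within the injured animals, whose cell types come from the same animal. Comparisons with control used genes listed in both tables. The fits were tested on simulated counts. Alternatives were DESeq2 1.42.0, other scaling, no filters, thinning, nuclei with at most 2500 genes and leaving out each injured animal. Intervals are Clopper-Pearson at 95% or exact counting intervals, and cover counting error only. At 2117 to 4504.5 UMIs per median nucleus, a scarce transcript can go undetected in a nucleus that holds it.

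The members, lists and tests were chosen with earlier results of these data known. All members were named, and of each list at most the 2 called rises and 2 called falls with the largest fold in a comparison. Gene names follow the deposited tables and a table of gene names. Other steps ran in Python 3.11.15 (pandas 2.3.3, scipy 1.17.1, numpy 2.4.6). A result on 1 further marker is not reported here.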

Additional observations from a re-analysis of the deposited data

How the results depend on the processing

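Leaving out 1 injured animal gave ranges that crossed 0 for several member differences from control that had not passed the test. On the log2 scale these ran, in ExN, from -0.051 to 0.60 for *ARC*, from -0.20 to 0.42 for *EGR1* and from -0.084 to 0.90 for *NPAS4*, and for *NR4A1* from -0.47 to 0.046 in astrocytes, from -0.17 to 0.39 in Endo as labelled and from -0.43 to 0.048 in oligodendrocytes. The difference in *ARC* injury effect between neurons and glia, with UMIs summed, ran from -0.019 to 0.25. Without cluster 19 the *NR4A1* difference in Endo was -0.31, also with no limit on the share of nuclei, and -0.27 with no filter on low counts. Thinned to 1000 UMIs, *EGR1* in ExN was -0.038 and *NR4A1* between *CUX2* and *FOXP2* nuclei -0.25. With nuclei of at most 2500 genes, *NR4A1* in astrocytes was 0.71, and with UMIs summed, *EGR1* between neurons and glia was 0.55. With UMIs summed, the difference between neurons and glia was 2.49 for *NR4A1* and 2.22 for *ARC*, and thinned to 1000 UMIs it was -1.82 for *FOS*. The causes were not tested.

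The number of members called higher in neurons than glia was 1, and 0 after thinning to 1000 UMIs and 2 with no limit on the share of nuclei. The 0 follows from the 10% limit alone, since *NR4A1* thinned had a UMI in 5.30% of neuronal nuclei and a log2 difference of 1.305 (adjusted p = 9.94e-07, edgeR). Without that limit 1 member was lower in neurons and 1 lower in *CUX2* than in *FOXP2* nuclei, and the latter count ran from 0 to 1 over the fits that left out an animal (1 without injured 1). Dropping the replicate block left *ARC* between *CUX2* and *FOXP2* nuclei at -0.76 with an adjusted p of 0.407 (edgeR), against 0.0034 with the block. Over all 33 values refitted without the block, 27 kept their direction and side of the threshold or their count.

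The share of nuclei with a UMI of any member moved with depth. In injured neurons it was 35.4% as deposited, 4.27% at 500 UMIs, 11.2% at 1500 UMIs and 22.9% with at most 2500 genes per nucleus, and in control neurons 19.7%, 4.16%, 10.5% and 16.2%. In injured glia these were 11.1%, 1.93%, 5.04% and 9.08%, and in control glia 2.98%, 1.19%, 3.11% and 2.47%. The 95% interval of control glia (0.764 to 1.77) overlapped those of injured 1 (1.07 to 1.80) and injured 3 (1.73 to 2.65) at 500 UMIs, and at 1500 UMIs, with 418 control glia left, its interval of 1.67 to 5.26 overlapped those of all 3 injured libraries. Of the 725 values of single genes under alternatives, members and list genes together, 651 kept direction and side of the adjusted p limit, 60 no longer passed it and 14 changed sign, none of them past it in the first place. Member differences from control with 3 or fewer control UMIs, such as *FOS* outside ExN, are not among them. The 3 UMIs that a count of 0 allows bound what the 129 microglia, 171 OPC and 181 Endo nuclei of control can show.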
